A study of Mus musculus with 15 samples.

Results

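The integrin and laminin genes were taken from the deposited count tables by symbol: every Itga or Itgb gene followed by a number, the lettered genes Itgad, Itgae, Itgal, Itgam, Itgav, Itgax and Itga2b, and every Lama, Lamb or Lamc gene followed by a number. This gave 37 of the 25748 genes counted, namely 18 integrin alpha genes, 8 integrin beta genes and 11 laminin chain genes. The counts came from polyadenylated RNA of primary astrocytes of mouse brain, in 15 libraries of 3 groups of 5. The control cultures were untreated. The LPS cultures, which the submitters label SCI, received 1 µg/mL lipopolysaccharide, the bacterial cell wall component sensed by TLR4, for 6 to 8 h. The Rg1 plus LPS cultures were first given 80 µM ginsenoside Rg1, a saponin of ginseng, for 12 h and then 1 µg/mL lipopolysaccharide for 6 to 8 h. None of the groups received Rg1 alone, so the action of Rg1 is seen here in LPS-treated cells. SCI, a name for spinal cord injury, here stands for LPS on cultured brain cells, and no mouse strain or age is given in the sources used here. It is not stated whether replicates are separate cultures or animals, and p-values then reflect the spread between these libraries, which may be technical.

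Integrins are cell surface receptors built from an alpha and a beta chain, which bind the extracellular matrix or other cells on the outside and link to actin inside. Laminins are trimers of an alpha, a beta and a gamma chain that form the sheet of a basement membrane. In the brain, astrocyte endfeet rest on the laminin-rich basement membranes of blood vessels and of the brain surface, and attach there through beta-1 integrins and dystroglycan. The integrins with the beta-2 chain belong to leukocytes and microglia.

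Depth ranged from 34.2 to 41.764 M counts per library. Astrocyte genes were abundant, with Gfap at 4017 CPM in control, 2849 with LPS and 3167 with Rg1 plus LPS, where CPM is counts as parts per M of the scaled library size. The 12 astrocyte markers summed to 11590 ± 1089 CPM in control, 8547 ± 2083 with LPS and 9178 ± 1804 with Rg1 plus LPS. Markers of other cell types were present at low or moderate levels, except those of mural cells and fibroblasts. Their sum was 8118 ± 547, 9160 ± 1475 and 6925 ± 2310 CPM in the 3 groups, above the astrocyte sum in LPS. The 19 microglia markers summed to 59.8 to 155 CPM in control, 70.1 to 144 in LPS and 50.1 to 75.9 in Rg1 plus LPS, and Siglech was at 0 in control. Of 10 endothelial markers, Cldn5 and Tie1 were at 0 in control, and the sum was 148 ± 11.2, 180 ± 12.7 and 102 ± 7.55 CPM in the 3 groups (SD, n = 5). Most of it came from Cdh5, at 120.5, 140.9 and 86.8 CPM, while Pecam1 and Vwf were at 0.06 and 0.22 CPM in control. The 12 mural cell and fibroblast markers summed to 7539 to 8797 CPM in control and 7362 to 11440 in LPS. With Rg1 plus LPS their sum was 4120 and 5514 CPM in replicates 1 and 4 and 6618 to 9951 in replicates 2, 3 and 5. Itga1, Itga3, Itga11, Lama1 and Lama4 also set Rg1 plus LPS replicates 1 and 4 apart from the others, as given with each below. Among other members, the same 2 libraries were the highest of this group in Itga2, Itga2b, Itga10, Itgb3 and Itgax. They were its lowest in Itga4, Itga6, Itga9, Itgb4, Lama2, Lama3, Lama5, Lamb2 and Lamc1. Some margins were small, as in Lamc1, at 141.8 CPM in replicate 1 and 143.0 in replicate 3. LPS replicates 1 and 4 were likewise the lowest LPS libraries in Itga1, Itga11, Lama1 and Lama4 and the highest in Itga3. The share of counts in mitochondrial transcripts was 2.66 ± 0.119% in control cultures, 2.05 ± 0.30% with LPS and 4.06 ± 0.819% with both agents. The part of these differences in the results below was not tested beyond the values given beside them.

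The untreated cultures carried 1 integrin beta gene far above all other members. Compared per gene length as FPKM, Itgb1, the shared beta chain, stood at 568 ± 26 and made up 83.1% of summed integrin beta FPKM. Itgb5, a partner of alpha-v, followed at 100.5 ± 3.9 FPKM. Among the alpha chains, Itga5, the fibronectin receptor chain that binds an RGD motif, took 36.0% of summed FPKM and Itgav, the alpha-v chain, 28.2%. Their levels were 58.2 ± 12 and 45.1 ± 3.0 FPKM, and their ratio ranged from 0.935 to 1.59 over the 5 control libraries, so their order was not the same in each. Among the laminins, Lamb2 was at 58.3 ± 1.6 FPKM, above Lamc1 at 37.6 ± 0.82 and Lamb1 at 37.4 ± 2.3, which did not differ beyond their spread. Lama4 led the alpha chains at 14.9 ± 2.3 FPKM, with 60.2% of their sum, followed by Lama5 and Lama2 with 18.5% and 18.4%. The most abundant chains at rest were thus alpha-4, beta-2 and gamma-1.

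**Figure D1:**
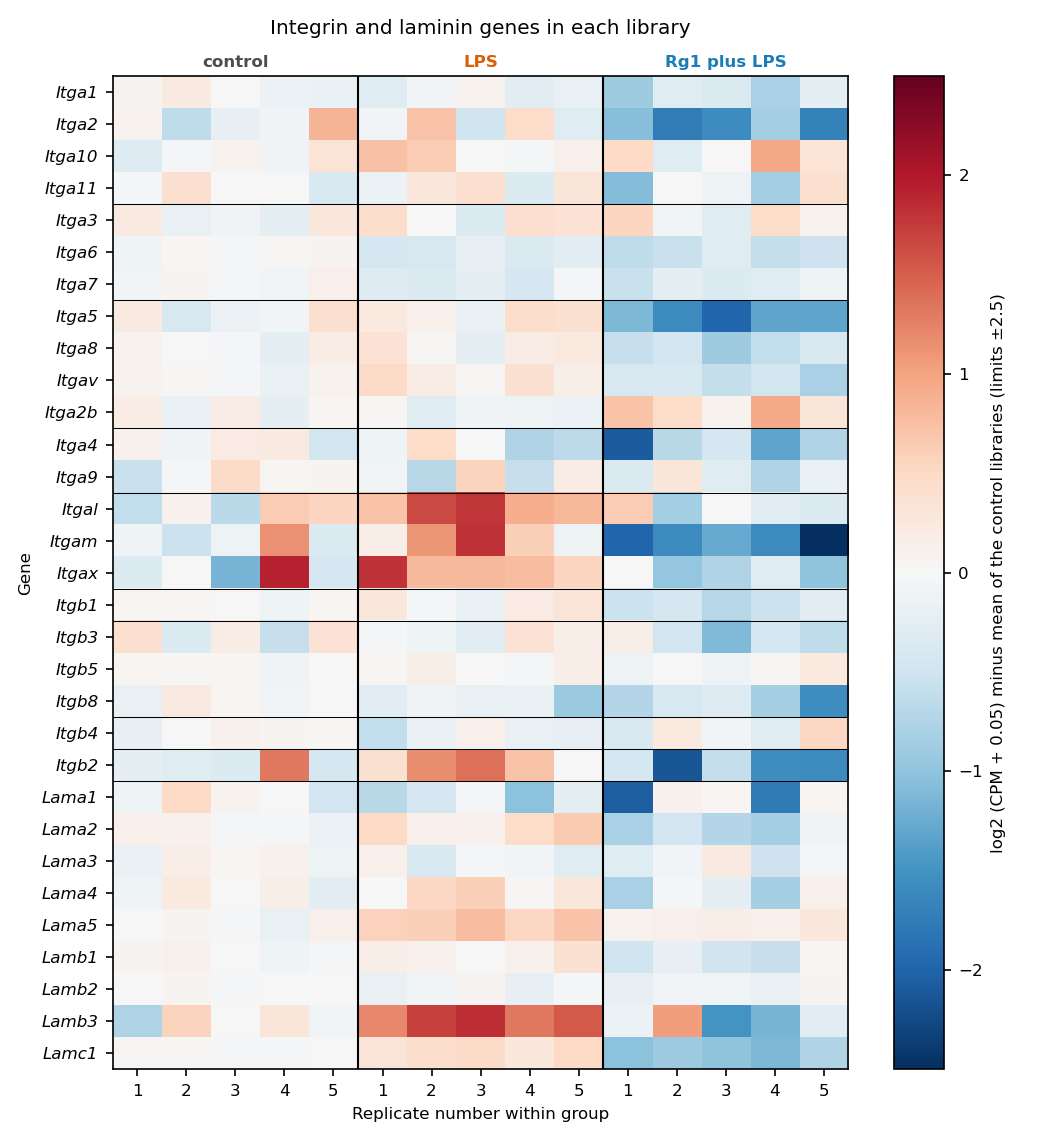
Relative level of 31 tested members in each of the 15 libraries (columns, by group and replicate number). Colour is log2 of CPM plus 0.05, minus the mean of the 5 control libraries. Lines divide groups of libraries and roles of genes, and the Rg1 plus LPS columns are blue, below control, for Itga5, Itgam, Itgb1 and Lamc1.

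Of the 37 members, 32 had enough counts to be tested: 22 of the 26 integrins and 10 of the 11 laminins. In LPS against control, 7 of 32 passed edgeR's quasi-likelihood test at an adjusted p under 0.05 (Benjamini-Hochberg, over 15362 genes), which is 21.9% against 23.7% of all genes tested, a share near the background. The 5 that rose, where 13.8% of all genes rose, included Itgal, Lama5, Lamb3 and Lamc1, and Itga6 and Itga7 fell (2 members, where 9.82% of all genes fell). The 5 that rose had all LPS libraries above all control libraries, as did 12.8% of all genes, and Itga6 had all below, as did 7.64%. By family, 4 of 10 laminins rose and none fell, while 1 of 22 integrins rose and 2 fell. In Rg1 plus LPS against LPS, 20 of 32 passed, or 62.5%, against 45.4% of all genes. Of these, 19 fell (59.4% of the members, against 23.2% of all genes), and Itga2b rose without overlap (22.2% of all genes rose, and 12.4% did not overlap on the higher side). The median log2 fold change was -0.49 over the tested members and 0.03 over all genes, and 8 members were at least 2-fold lower, where 5.24% of all genes were. In 14 members every Rg1 plus LPS library lay below every LPS library, 43.8% against 15.1% of all genes. The 4 tested leukocyte integrins, Itgam, Itgb2, Itgal and Itgax, were among these 14 and among the 8 at least 2-fold lower. Of these 4, Itgax could be tested only through its LPS libraries and control replicate 4. Among the other 18 integrins tested, 44.4% fell, 27.8% lay below LPS without overlap, and 2 were at least 2-fold lower. In Rg1 plus LPS against control, 16 of 32 passed against 36.9% of all genes, with a median of -0.41 against 0.01. Here 15 fell, against 18.1% of all genes, and Itga2b rose, against 18.8%, while 4 were at least 2-fold lower, against 3.22%. Of the 4, 2 were leukocyte integrins. All Rg1 plus LPS libraries lay below all control libraries in 11 members, against 13% of all genes, and above them in 0, against 13.2%. The 3 comparisons use the same libraries in pairs and are not independent of each other.

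Many members are long genes, and the Rg1 plus LPS differences ran with gene length over all genes. Of the 32 tested members, 15 were in the top length quartile of genes and 0 in the bottom quartile. For Rg1 plus LPS against LPS, the median log2 fold change was -0.19 over the top length quartile of all genes and 0.24 over the bottom quartile. With the trend on length removed, 16 members passed in this comparison, 15 of them lower. Of all 15362 genes, 6021 passed in that fit, against 6976 in the main fit, and 45.2% of the 6021 were higher. Itga5, Itgav, Itgb1, Lamc1, Lama2 and Lama5 passed in both fits, at log2 fold changes of -1.60, -0.59, -0.59, -1.16, -0.72 and -0.26 with the trend removed. For Rg1 plus LPS against control, 13 members passed with the trend removed, 11 of them lower, where 4739 of all 15362 genes passed.

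**Figure D2:**
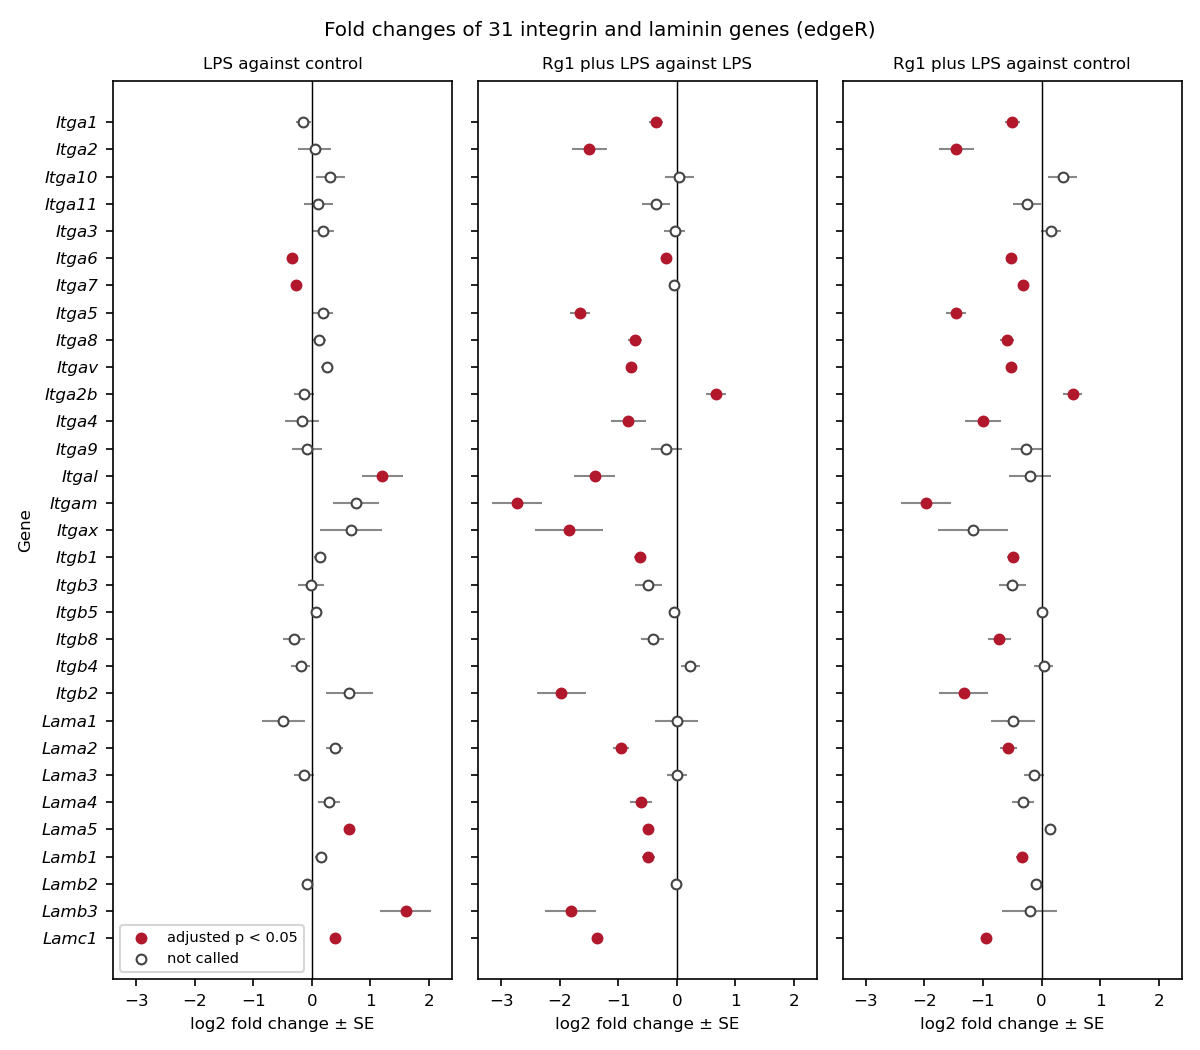
Log2 fold change ± SE of 31 tested members in the 3 comparisons (filled: adjusted p under 0.05 in edgeR's quasi-likelihood test; n = 5 per group). In Rg1 plus LPS against LPS, 18 members are filled to the left of 0, and Itga2b is filled to the right.

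The receptors of RGD-bearing matrix proteins held the largest fall of an abundant integrin. Itga5 lies on GRCm38 chromosome 15, from 103344286 to 103366763. Its level was 299.8, 194.0, 232.9, 243.5 and 339.1 CPM in control replicates 1 to 5. It was 304.6, 280.5, 230.1, 346.5 and 334.0 CPM in LPS, and 118.4, 85.7, 64.8, 102.9 and 103.6 CPM in Rg1 plus LPS. The control and LPS libraries were spread over the same range, and all 5 Rg1 plus LPS libraries lay below both. Itga5 fell by 1.65 ± 0.17 on the log2 scale against LPS (adjusted p = 1.7e-06), and the value against control was -1.46 ± 0.17 (adjusted p = 1.29e-05). For LPS against control the difference of 0.19 ± 0.17 did not pass (adjusted p = 0.434).

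Itgav, the alpha-v chain that pairs with several beta chains, fell less. Its levels were 334.6, 325.1, 311.4, 281.3 and 334.8 CPM in control, 439.5, 362.0, 323.1, 415.1 and 353.0 with LPS, and 240.4, 244.4, 210.0, 231.1 and 181.7 with Rg1 plus LPS. Every Rg1 plus LPS library was below every other library, at -0.77 ± 0.09 (log2) against LPS (adjusted p = 5.58e-06) and -0.52 ± 0.09 against control (adjusted p = 0.000439). For LPS against control, Itgav was at 0.25 ± 0.09 (adjusted p = 0.058), which did not pass in the main fit and passed in 6 of 27 alternative settings. Itga8, an RGD receptor chain that pairs with beta-1, was at 23.9, 22.5, 21.9, 18.97 and 25.5 CPM in control and 28.9, 22.9, 18.8, 25.4 and 26.8 in LPS. With Rg1 plus LPS it was at 15.0, 16.2, 12.1, 14.7 and 17.1 CPM. These 5 were again the lowest of the 15, at -0.71 ± 0.12 (log2) against LPS (adjusted p = 0.000125) and -0.59 ± 0.12 against control (adjusted p = 0.000988).

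Itgb1 and Itgb5 differed in the same libraries. Itgb1 read 2484, 2449, 2368, 2211 and 2474 CPM in control, 2915, 2337, 2144, 2767 and 2987 with LPS, and 1648, 1786, 1463, 1645 and 1972 with Rg1 plus LPS. The treated libraries with Rg1 did not overlap either group, with log2 fold changes of -0.63 ± 0.10 against LPS (adjusted p = 7.27e-05) and -0.49 ± 0.10 against control (adjusted p = 0.000912). Itgb5 stood at 321.1 to 351.0 CPM in control, 332.9 to 382.1 in LPS and 312.7 to 404.5 in Rg1 plus LPS. Its log2 fold change against LPS was -0.05, with a 95% interval from -0.20 to 0.10, and against control 0.01, from -0.14 to 0.17. The ratio of Itgb1 to Itgb5 in FPKM was 5.65 ± 0.14 in control, 5.95 ± 0.84 with LPS and 3.98 ± 0.23 with Rg1 plus LPS, where its highest value, 4.24, was below the lowest of the other groups, 5.00.

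The promoters of these 4 genes are shown for the contrast between Itga5, Itgav and Itgb1, which fell, and Itgb5, which did not pass. Each run is the 250 bases before the RefSeq start in GRCm38.p6, read on the gene's own strand, and capitals mark the GC box GGGCGG on either strand (CCGCCC where it lies on the other strand). The windows are chr15:103366792-103367041 on the minus strand for Itga5, and, on the plus strand, chr2:83724147-83724396 for Itgav, chr8:128685404-128685653 for Itgb1 and chr16:33829415-33829664 for Itgb5.
Itga5: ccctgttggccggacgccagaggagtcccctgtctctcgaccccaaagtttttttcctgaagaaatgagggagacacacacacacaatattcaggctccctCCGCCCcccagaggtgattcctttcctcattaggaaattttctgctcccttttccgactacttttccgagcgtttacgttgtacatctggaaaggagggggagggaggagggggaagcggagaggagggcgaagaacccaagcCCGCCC
Itgav: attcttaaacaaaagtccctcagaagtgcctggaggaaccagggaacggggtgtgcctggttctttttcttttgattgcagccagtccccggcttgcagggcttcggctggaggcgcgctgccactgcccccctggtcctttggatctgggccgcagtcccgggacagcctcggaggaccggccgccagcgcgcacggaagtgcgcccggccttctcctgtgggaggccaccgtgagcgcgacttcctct
Itgb1: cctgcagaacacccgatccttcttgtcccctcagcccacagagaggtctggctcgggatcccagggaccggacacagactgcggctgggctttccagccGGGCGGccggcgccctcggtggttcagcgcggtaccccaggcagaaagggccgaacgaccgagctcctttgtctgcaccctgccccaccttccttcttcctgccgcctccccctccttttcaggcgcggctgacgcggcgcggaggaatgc
Itgb5: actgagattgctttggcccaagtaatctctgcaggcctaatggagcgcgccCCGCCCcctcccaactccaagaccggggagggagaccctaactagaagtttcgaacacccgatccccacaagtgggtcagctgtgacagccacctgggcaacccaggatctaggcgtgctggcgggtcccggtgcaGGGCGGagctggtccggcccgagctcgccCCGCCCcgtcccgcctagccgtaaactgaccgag
Itga5 held 2 GC boxes, Itgav 0, Itgb1 1 and Itgb5 3. Over the 32851 promoters of the table, 32.7% held at least 1 in the same window, as did 9 of the 26 promoters found for 23 of the members. The other motifs searched on both strands were the AP-1 site TGANTCA, present in 6.75% of all promoters, and the NF-kB consensus, in 7.25%. Each was found in 1 member promoter, that of Itgax and that of Lamb3, and in none of these 4 windows.

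**Figure D3:**
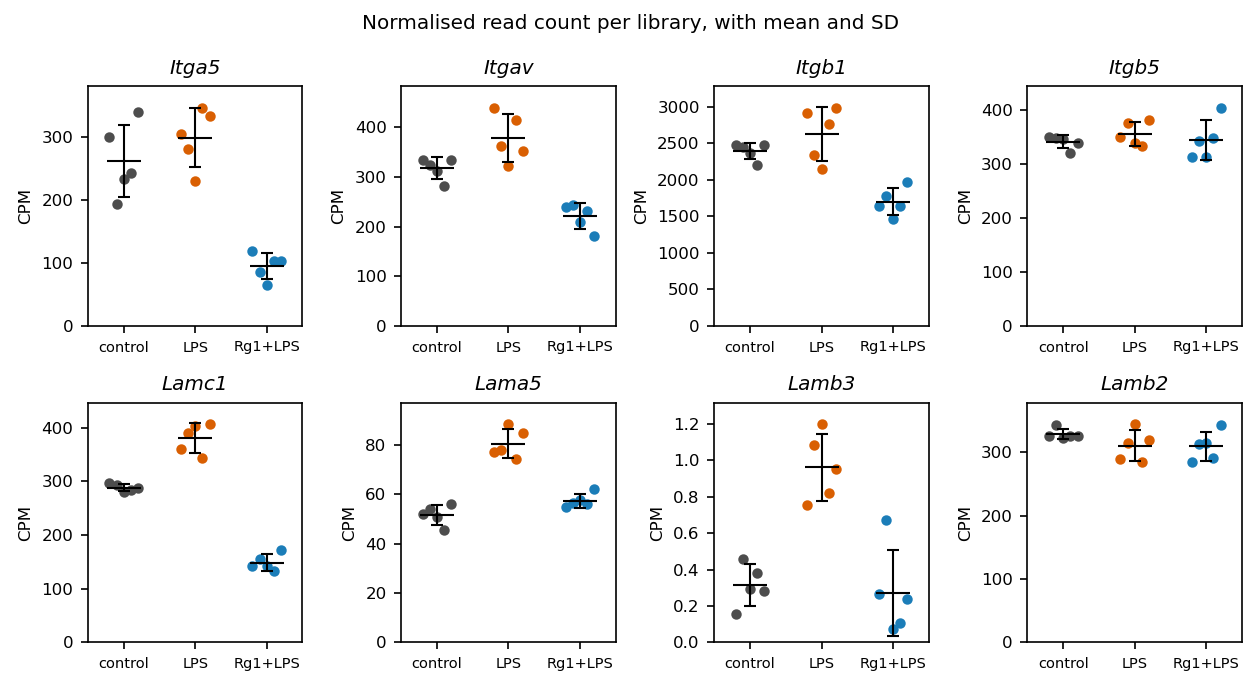
CPM in each library of 8 members (points, n = 5 per group; bars, mean and SD; linear axes from 0). The Rg1 plus LPS points of Itga5, Itgav, Itgb1, Lamc1, Lama5 and Lamb3 lie below all LPS points, and those of Itgb5 and Lamb2 lie among them.

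The remaining alpha-v partners and Itga2b were less abundant. Itgb8, which forms with alpha-v a receptor of latent TGF-beta on astrocytes, was at 93.8, 124.5, 110.3, 102.5 and 107.5 CPM in control and 89.0, 100.2, 94.2, 95.7 and 56.4 in LPS. With Rg1 plus LPS it was at 64.6, 80.8, 85.2, 60.2 and 36.6 CPM, all below control and overlapping LPS. Its log2 fold change was -0.72 ± 0.19 against control (adjusted p = 0.00872) and -0.41 ± 0.19 against LPS (adjusted p = 0.0936). The difference from LPS passed in 3 of 27 alternative settings. These were replicate number as a block (adjusted p = 0.0229), leaving out LPS replicate 5 and leaving out Rg1 plus LPS replicate 3. Itgb3 had a mean of 4.27, 4.23 and 3.02 CPM in the 3 groups and passed no test in the main fit. For Rg1 plus LPS it passed in 3 of 27 alternative settings against control and in 2 against LPS. Itga2b, the alpha chain of the platelet fibrinogen receptor, was the member that rose with Rg1, at a low level. It was at 2.84, 2.22, 2.83, 2.11 and 2.58 CPM in control, 2.55, 2.01, 2.34, 2.29 and 2.25 with LPS, and 4.11, 3.45, 2.64, 4.90 and 3.10 with Rg1 plus LPS. The Rg1 plus LPS libraries lay above all LPS libraries, by 0.67 ± 0.17 on the log2 scale (adjusted p = 0.00382), and overlapped control (0.53 ± 0.17, adjusted p = 0.0198). The call against control was lost without control replicate 4 or without Rg1 plus LPS replicate 4. It was also lost without Rg1 plus LPS replicates 1 and 4, the highest libraries of that group, a choice made after seeing the data.

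Among the collagen receptor chains, Itga2 fell and Itga1 was lower by less. Itga2 was at 5.01, 3.01, 4.09, 4.42 and 8.60 CPM in control, 4.52, 7.73, 3.32, 6.52 and 3.83 with LPS, and 2.25, 1.36, 1.56, 2.58 and 1.43 with Rg1 plus LPS. The last group lay below all other libraries, with log2 fold changes of -1.498 ± 0.30 against LPS (adjusted p = 0.000694) and -1.45 ± 0.30 against control (adjusted p = 0.00133). Itga1 averaged 85.8 ± 9.54, 77.4 ± 8.80 and 60.6 ± 12.5 CPM, and within Rg1 plus LPS it was at 46.0 and 48.5 in replicates 1 and 4 and at 66.3 to 73.4 in the others. Its log2 fold change was -0.50 ± 0.13 against control (adjusted p = 0.00537) and -0.35 ± 0.13 against LPS (adjusted p = 0.031). The second call was lost in 10 of 27 settings, among them without LPS replicate 2 or 3, without Rg1 plus LPS replicate 1 or 4, with library size scaling alone (-0.24, adjusted p = 0.12) and with the length trend removed (-0.22, adjusted p = 0.185). Itga10 and Itga11 passed no test. In Itga11, Rg1 plus LPS replicates 1 and 4 were at 7.78 and 9.18 CPM and replicates 2, 3 and 5 at 15.3 to 21.98.

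The alpha chains that bind laminin differed from each other. Itga6 fell with LPS, from 62.5, 70.1, 65.9, 69.0 and 71.4 CPM in control to 50.9, 50.9, 58.9, 52.6 and 55.3, so the groups did not overlap (-0.34 ± 0.07, log2; adjusted p = 0.0018). In Rg1 plus LPS it was at 43.5, 46.1, 55.2, 44.9 and 47.1 CPM, which was -0.52 ± 0.07 against control (adjusted p = 2.88e-05). The further difference from LPS was -0.18 ± 0.07 (adjusted p = 0.0403) and passed in 12 of 27 alternative settings. Itga7 averaged 64.2 ± 4.10, 53.3 ± 5.77 and 51.8 ± 5.89 CPM and fell with LPS by 0.27 ± 0.09 on the log2 scale (adjusted p = 0.0319), a call lost when any of 5 single libraries was left out. Against control, Rg1 plus LPS was at -0.31 ± 0.09 without overlap (adjusted p = 0.00965), lost only with the length trend removed (-0.16, adjusted p = 0.199), with or without the replicate block. Itga3 passed no test, at 81.3 ± 13.2, 93.0 ± 20.1 and 91.0 ± 22.3 CPM. Its Rg1 plus LPS values were 117 and 111 CPM in replicates 1 and 4 and at 65.4 to 85.2 in the others. Itgb4, the beta chain that pairs with alpha-6 in hemidesmosomes, was at 5.69 to 6.68 CPM on average and passed no test in the main fit. In Rg1 plus LPS against LPS it passed as higher in 2 of 27 alternative settings.

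Itga4 and Itga9 form related receptors of VCAM-1, fibronectin and tenascin. Itga4 was at 1.94, 1.68, 2.08, 2.11 and 1.29 CPM in control, 1.67, 2.47, 1.78, 1.04 and 1.13 with LPS, and 0.39, 1.09, 1.33, 0.69 and 1.05 with Rg1 plus LPS. The groups overlapped. Against LPS the difference was -0.82 ± 0.31 (log2; adjusted p = 0.037), and against control -0.995 ± 0.31 (adjusted p = 0.0175). The first call was lost when any of LPS replicates 1, 2 and 3 or Rg1 plus LPS replicates 1 and 4 was left out, and both were lost with the length trend removed. Itga9, at 1.83 to 2.19 CPM on average, passed no test.

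Lamc1 rose with LPS and fell in Rg1 plus LPS. It encodes the gamma-1 chain found in most laminins and lies on GRCm38 chromosome 1 from 153218922 to 153332786. It was at 296.2, 293.4, 280.9, 283.8 and 288.2 CPM in control, 360.7, 389.4, 403.7, 344.1 and 406.3 with LPS, and 141.8, 154.7, 143.0, 132.4 and 172.2 with Rg1 plus LPS. The 3 groups did not overlap anywhere. Lamc1 rose by 0.40 ± 0.07 on the log2 scale with LPS (adjusted p = 0.000392) and fell by 1.36 ± 0.07 in Rg1 plus LPS against LPS (adjusted p = 2.02e-10). Against control it was at -0.95 ± 0.07 (adjusted p = 6.01e-08). Its ratio to Lamb2 in FPKM was 0.646 ± 0.014, 0.904 ± 0.028 and 0.354 ± 0.018 in the 3 groups.

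The laminin beta chains divided. Lamb2, the most abundant laminin, was at 322.8 to 342.2 CPM in control, 283.7 to 343.8 in LPS and 284.9 to 342.4 in Rg1 plus LPS. Its log2 fold change was -0.08 with LPS (95% interval -0.22 to 0.05) and -0.00 in Rg1 plus LPS against LPS (-0.14 to 0.13). Lamb1 averaged 219.8 ± 12.8, 244.9 ± 24.5 and 175.0 ± 34.0 CPM and fell by 0.48 ± 0.11 on the log2 scale in Rg1 plus LPS against LPS (adjusted p = 0.0014), although the libraries overlapped. Against control its difference of -0.33 ± 0.11 (adjusted p = 0.0226) was lost without control replicate 2, without Rg1 plus LPS replicate 3 or 4, and with the length trend removed (-0.23, adjusted p = 0.116). Lamb3, the beta chain of laminin-332, stayed below 1 CPM in mean and is named here after its values were seen. It was at 0.15, 0.46, 0.29, 0.38 and 0.28 CPM in control, 0.75, 1.08, 1.20, 0.82 and 0.95 with LPS, and 0.27, 0.67, 0.07, 0.11 and 0.24 with Rg1 plus LPS. All LPS libraries lay above all others, by 1.61 ± 0.44 on the log2 scale over control (adjusted p = 0.0131), and Rg1 plus LPS was at -1.81 ± 0.44 against LPS (adjusted p = 0.00299). The Lamb3 window chr1:193301744-193301993 held no NF-kB consensus, and the Lamb3 window chr1:193301993-193302242 held 1, where 7.25% of all promoters held it. Both windows lie inside the gene span, which starts at 193207699. The match is in capitals in this stretch, chr1:193302007-193302036 on the plus strand of GRCm38.p6.
Lamb3: cacccagccaGGGAGTCTCCagaggtgagg

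Of the laminin alpha chains, Lama5 rose with LPS and Lama2 fell in Rg1 plus LPS. Lama5, a chain of vascular and epithelial basement membranes, was at 52.2, 53.9, 50.8, 45.6 and 56.2 CPM in control, 77.2, 78.0, 88.3, 74.3 and 84.8 with LPS, and 54.7, 56.4, 57.6, 56.1 and 62.1 with Rg1 plus LPS. All LPS libraries were above all others. The rise was 0.64 ± 0.07 on the log2 scale (adjusted p = 1.72e-06), and the value of Rg1 plus LPS against LPS was -0.49 ± 0.07 (adjusted p = 1.64e-05). Against control Lama5 was at 0.15 ± 0.07 (adjusted p = 0.0837), and with the length trend removed at 0.35, which passed as higher (adjusted p = 0.00153).

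Lama2, the chain that is mutated in merosin-deficient muscular dystrophy, was at 58.7, 58.2, 52.4, 52.7 and 48.5 CPM in control, 76.0, 59.2, 58.1, 74.5 and 85.5 with LPS, and 30.8, 38.9, 32.5, 29.9 and 50.7 with Rg1 plus LPS. The Rg1 plus LPS libraries lay below all LPS libraries (-0.95 ± 0.14, log2; adjusted p = 4.76e-05), and replicate 5 reached into the control range (-0.57 ± 0.14, adjusted p = 0.00485). With the length trend removed, the Lama2 difference from control did not pass (-0.36, adjusted p = 0.0705). For LPS against control, Lama2 was at 0.39 ± 0.14 (adjusted p = 0.0539), which did not pass in the main fit and passed in 9 of 27 alternative settings. Lama4, a chain of vessel walls, was at 83.0, 107.1, 90.5, 99.6 and 73.5 CPM in control, 89.6, 129.5, 136.7, 91.8 and 109.2 with LPS, and 51.1, 88.5, 76.4, 50.7 and 98.8 with Rg1 plus LPS. Replicates 1 and 4 of the last group were the lowest of all libraries, the same 2 that were lowest in mural cell and fibroblast markers. LPS replicates 1 and 4 were also the lowest of the LPS libraries. The difference from LPS was -0.61 ± 0.19 (adjusted p = 0.0145) and did not pass with the length trend removed (-0.47, adjusted p = 0.0578). Without Rg1 plus LPS replicates 1 and 4, a choice made after seeing the data, it did not pass either (-0.34, adjusted p = 0.116). That fit kept the low LPS replicates 1 and 4. Lama1 showed the same division, with 1.21 and 1.49 CPM in Rg1 plus LPS replicates 1 and 4 and 5.34 to 5.56 in the other 3, and passed no test. Lama3, at 2.09 to 2.29 CPM on average, passed none either. Of the mural cell and fibroblast markers, 2 of 10 tested were lower in Rg1 plus LPS than in LPS, Pdgfrb at -0.72 and Pdgfra at -0.58 (log2). Of 5 endothelial markers tested, 2 were lower, Flt1 at -2.88 and Cdh5 at -0.70. The share of all genes that fell in this comparison was 23.2%, so the mural cell and fibroblast count is near it. Their part in the laminin values was not tested.

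**Figure D4:**
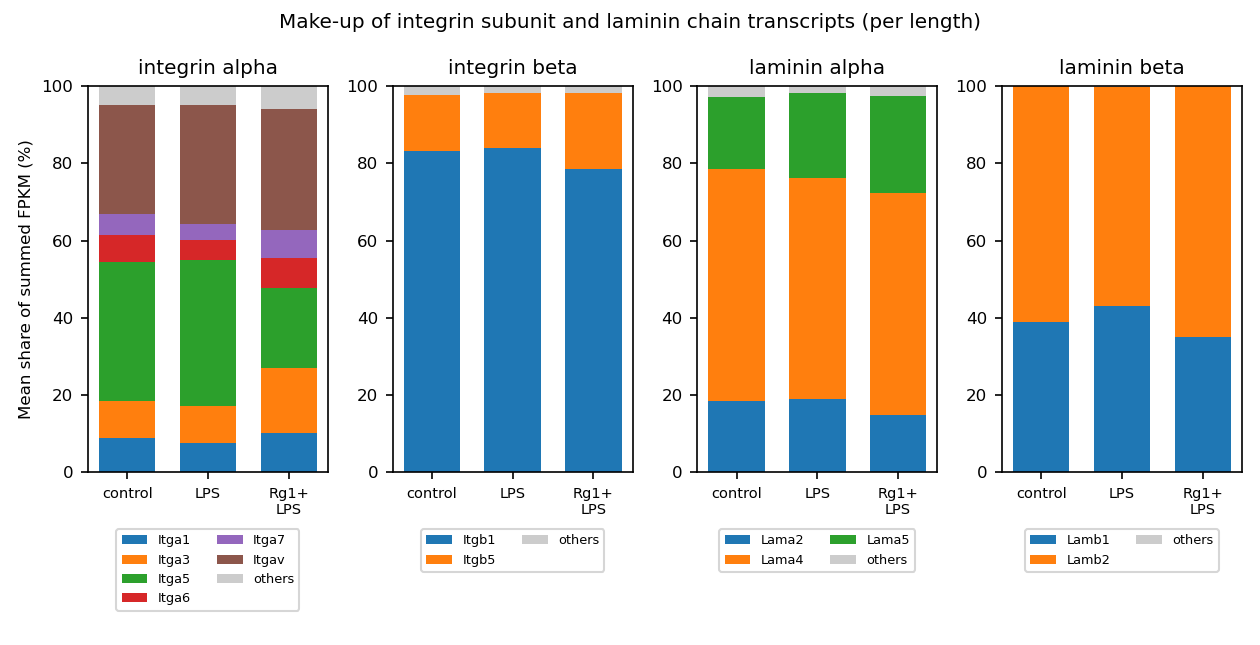
Share of summed FPKM held by each chain within the integrin alpha, integrin beta and laminin alpha and beta chains in the 3 groups (stacked bars from 0 to 100%, means over 5 libraries, minor chains pooled as others). Itga5 took 36.0% of integrin alpha FPKM in control, 37.8% with LPS and 20.8% with Rg1 plus LPS, while Itgb5 took 14.7%, 14.3% and 19.7% of integrin beta FPKM.

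The make-up of the integrin families differed between groups. Summed integrin alpha FPKM was 160 ± 14.8 in control, 170 ± 17.5 with LPS and 105 ± 7.17 with Rg1 plus LPS. Itga5 was the leading alpha chain in control and LPS, and Itgav in Rg1 plus LPS, where the ratio of Itga5 to Itgav was 0.679 ± 0.166 and below 1 in all 5 libraries. Itga3, which passed no test, went from 9.43% and 9.83% of the sum to 16.8%. Summed laminin beta FPKM was 95.7 ± 3.72, 93.9 ± 4.599 and 88.6 ± 9.01.

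The leukocyte integrins were at low levels, and Itgam, Itgb2, Itgal and Itgax were lower in Rg1 plus LPS than in LPS. Itgam, the CD11b chain of complement receptor 3 on microglia, was at 1.81, 1.33, 1.79, 4.39 and 1.51 CPM in control, 2.21, 4.28, 7.01, 2.99 and 1.78 with LPS, and 0.46, 0.62, 0.79, 0.61 and 0.26 with Rg1 plus LPS. Every library with Rg1 lay below every other library, at -2.73 ± 0.43 (log2) against LPS (adjusted p = 9.89e-05) and -1.97 ± 0.43 against control (adjusted p = 0.00215). Itgb2, the common beta chain of this group, was at 2.48, 2.36, 2.30, 7.32 and 2.13 CPM in control, 3.79, 6.59, 7.68, 4.80 and 2.96 with LPS, and 2.15, 0.62, 1.90, 0.96 and 0.93 with Rg1 plus LPS. It was lower than in LPS without overlap (-1.97 ± 0.42, adjusted p = 0.00123), and its call against control (-1.33 ± 0.42, adjusted p = 0.0205) was lost without control replicate 4 or Rg1 plus LPS replicate 5.

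Itgal, the alpha chain of LFA-1, was the 1 integrin called higher with LPS in the main fit. It was at 0.39, 0.68, 0.37, 1.00 and 0.92 CPM in control, 1.05, 2.06, 2.27, 1.21 and 1.15 with LPS, and 0.99, 0.32, 0.62, 0.51 and 0.48 with Rg1 plus LPS. The LPS libraries lay above all others, with LPS replicates 2 and 3 highest. The rise was 1.21 ± 0.35 on the log2 scale (adjusted p = 0.0205) and was lost without control replicate 1, control replicate 3 or LPS replicate 2. The difference of Rg1 plus LPS from LPS was -1.40 ± 0.36 (adjusted p = 0.00413), and without LPS replicates 2 and 3, chosen after seeing the data, -0.94 (adjusted p = 0.0598). Itgax, at 0.35, 0.54 and 0.15 CPM on average, was lower in Rg1 plus LPS than in LPS (-1.85 ± 0.58, adjusted p = 0.0159), a call lost without LPS replicate 1 (adjusted p = 0.0526). It had enough counts to be tested only through its LPS libraries and control replicate 4, so it had to be higher there, and the value is a description. Against control, Rg1 plus LPS did not pass for Itgal (-0.20, adjusted p = 0.708) or Itgax (-1.18, adjusted p = 0.137).

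Many microglia markers were also lower in Rg1 plus LPS. Of 17 tested, 10 fell in Rg1 plus LPS against LPS, where 23.2% of all genes fell, with a median log2 fold change of -1.81, and 7 fell against control, where 18.1% of all genes fell. With LPS alone, 1 of the 17 rose and 0 fell. C1qa, a complement gene of microglia, averaged 5.67, 6.25 and 1.54 CPM, and Csf1r, the receptor microglia need to survive, 4.73, 5.96 and 1.31. The other 7 did not pass, among them P2ry12 at 1.22, Aif1 at 0.54, Tmem119 at 0.34 and Cd68 at -0.19 (log2, Rg1 plus LPS against LPS). Tmem119 and Cd68 made up much of the summed level. With all 19 markers the Rg1 plus LPS sum, 50.1 to 75.9 CPM, overlapped control and LPS. Tmem119 and Cd68, which did not fall, were then left out, a choice made after seeing the data. The other 17 markers summed to 25.4 to 108 CPM in control, 28.7 to 95.4 in LPS and 10.1 to 20.6 in Rg1 plus LPS. Control replicate 4, highest in Itgam, Itgb2 and Itgax among controls, was also highest in this sum. With all libraries, LPS against control did not pass for Itgam (0.75, adjusted p = 0.177), Itgb2 (0.64, adjusted p = 0.262) or Itgax (0.67, adjusted p = 0.389). Without control replicate 4 the values were 1.18 (adjusted p = 0.0335), 1.15 (adjusted p = 0.0252) and 1.67 (adjusted p = 0.0108). In bulk RNA, fewer cells of a type and less RNA per cell cannot be told apart, and the part of microglia in these values was not tested.

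**Figure D5:**
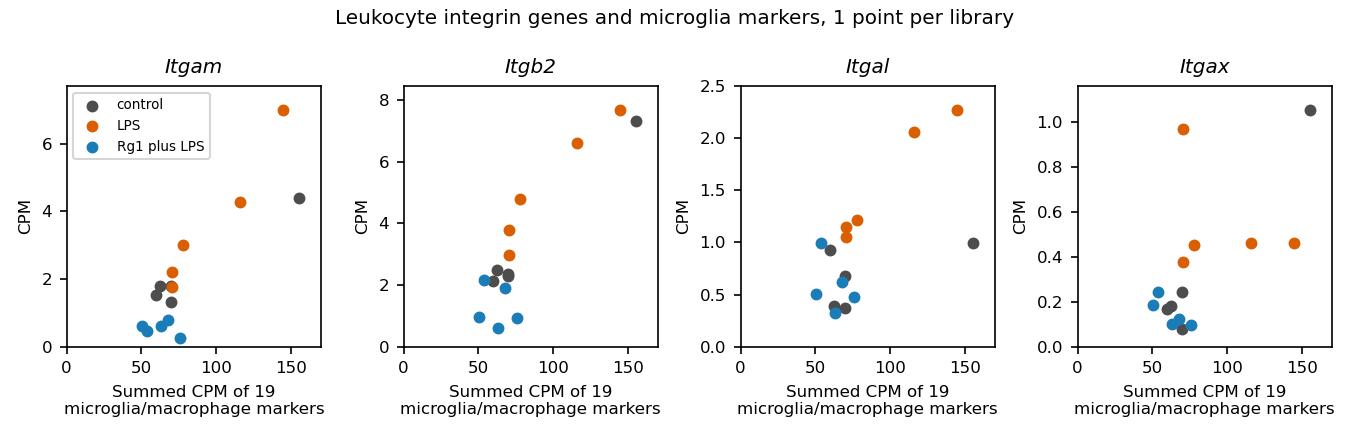
CPM of Itgam, Itgb2, Itgal and Itgax against the summed CPM of 19 microglia markers, 1 point per library, coloured by group. The Rg1 plus LPS libraries lie between 50.1 and 75.9 CPM on the x axis, and control replicate 4, at 155, is the control point farthest to the right.

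The 5 members that were not tested had few reads. Summed over the 5 libraries of control, LPS and Rg1 plus LPS, Itgad had 0, 2 and 0 counts, Itgae 36, 24 and 25, Itgb6 0, 8 and 1, Itgb7 10, 35 and 49, and Lamc3 12, 10 and 18. Of the 35 Itgb7 counts in LPS, 25 came from replicate 4. Where a library holds 0 counts, up to 3 are compatible with that reading, so Itgad, the CD11d chain, and Itgb6, an epithelial alpha-v partner, were at or near the detection limit.

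Genes that act with these receptors were taken as 5 lists. Their counts stand against 13.8% of all genes higher and 9.82% lower with LPS, and 22.2% higher and 23.2% lower in Rg1 plus LPS against LPS. Of 28 tested adaptor and signalling genes of adhesion sites, 8 rose and 4 fell with LPS, and 3 rose and 19 fell in Rg1 plus LPS against LPS (median -0.40 against 0.03 for all genes). The scaffold gene Pxn rose by 0.84 ± 0.07 on the log2 scale and then fell by 1.01 ± 0.07, and Nedd9 was at 1.19 ± 0.12 and then -1.124 ± 0.12. Bcar1 rose by 0.62 and fell by 0.54, and Actn1, an actin cross-linker, fell by 0.69 with Rg1. Vcl, which ties talin to actin, fell by 0.63 with LPS and was at -1.31 ± 0.10 in Rg1 plus LPS against control. Tns2 and Lims2 went the other way, at -0.79 and -1.20 with LPS and 0.59 and 0.96 in Rg1 plus LPS against LPS. Itgb1bp1, whose product binds the beta-1 tail, also rose in the second comparison, by 0.26 ± 0.07.

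Of 30 other matrix and basement membrane genes, 7 rose and 0 fell with LPS, and 0 rose and 12 fell in Rg1 plus LPS against LPS (median -0.33). The collagen IV genes Col4a1 and Col4a2 were at -0.94 ± 0.10 and -1.07 ± 0.11 on the log2 scale in the second comparison, Ntn1 at -0.53, and Fn1, the fibronectin bound by alpha-5 beta-1, at -0.71 ± 0.10. Hspg2, the perlecan gene, rose by 0.70 and Col4a3 by 1.85 with LPS. Against control, 2 rose, Ccn1 at 0.76 and Ccn2 at 0.48, and 12 fell, with Tnc, the tenascin-C gene, at -0.84. Of 23 tested laminin receptors outside the integrins and their associated genes, 4 rose and 4 fell with LPS, and 3 rose and 7 fell in Rg1 plus LPS against LPS, none far from the shares of all genes given above. Sdc4, a heparan sulfate co-receptor, rose by 1.05 ± 0.10 and fell by 1.68 ± 0.10, while Dag1, the dystroglycan gene, was at -0.37 ± 0.05 and Utrn, which ties it to actin, at -0.66 ± 0.08 in Rg1 plus LPS against LPS.

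Of 10 tested genes for cell surface ligands of integrins, 6 rose and 1 fell with LPS, and 0 rose and 6 fell in Rg1 plus LPS against LPS. Each count of 6 includes Madcam1, at 0.06, 1.05 and 0.08 CPM in control, LPS and Rg1 plus LPS, and Icam4, at 0.15, 0.54 and 0.14. These genes had enough counts to be tested through their LPS libraries, so they had to be higher there, and their part of the counts is a description. Icam1, the ligand of LFA-1, averaged 109, 1968 and 87.5 CPM in control, LPS and Rg1 plus LPS, and Vcam1, the ligand of alpha-4 beta-1, 98.4, 755 and 68.9. The log2 fold changes of Icam1 were 4.17 ± 0.24 and -4.49 ± 0.24, and those of Vcam1 2.94 ± 0.22 and -3.45 ± 0.22. Of 9 genes for TGF-beta and its activation, which alpha-v integrins carry out, 2 rose and 1 fell with LPS, and 1 rose and 4 fell with Rg1, counts too small to set apart from the shares of all genes. Ltbp2 rose by 0.69 and fell by 0.66, Tgfb1 rose by 0.41 and fell by 0.76, Lrrc32 fell by 1.57 and Tgfb2 fell by 0.64 in Rg1 plus LPS against LPS.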

How the data were processed

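RNA of 15 libraries was extracted with TRIzol and prepared with the VAHTS Universal V6 kit by OE Biotech, per the labels' protocols. The submitters' processing notes name GRCm38 and mm10, with aligner, counter, annotation and strandedness not given in the sources used here. The authors deposited raw counts for 25748 gene symbols per library. They also deposited FPKM, which equalled count over total and gene length to a relative deviation of at most 7.22e-10. The third group's treatment field runs from Rg1 to Rg5, and its titles, which give 5 replicates of Rg1, were followed.

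Counts were fitted with edgeR 4.0.16 in R 4.3.3: filterByExpr, TMM scaling, 1 robust quasi-likelihood fit over all 15 libraries, two-sided F-tests, and Benjamini-Hochberg adjustment over 15362 genes. An adjusted p under 0.05 is called changed. Fold changes are log2 ± SE, and CPM uses TMM-scaled library sizes, with mean ± SD (n = 5). FPKM is used to compare genes. DESeq2 1.42.0, limma 3.58.1 and 27 alternative settings in all were tried. No 2 libraries of a group were copies. The fit was tested on simulated data.

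Members and lists were chosen with earlier results of these data known. Library values are given for members that passed with an absolute log2 fold change of at least 0.58 and a mean of at least 1 CPM in some group. Of each other list, up to 4 risen and 4 fallen genes could be named, in order of adjusted p, and 175 of 176 list symbols were found. Icam4 is named besides, for its low level. The 95% intervals use the SE of the fit and so cover the spread between libraries, while the floor of 3 counts covers counting error only. Promoters are RefSeq's for GRCm38.p6 and gene positions GENCODE's for GRCm38. Reads of antisense or overlapping genes cannot be told apart where strand is unknown: Itga4 shares 8.04% of its exon bases with Cerkl on the opposite strand and Itgam 68.7% with Gm49368 on the same strand. The values of 1 tested member are not reported here, though it is included in the counts of members.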

Additional observations from a re-analysis of the deposited data

Results flagged for a closer look

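Of 96 groups of 5 libraries, 1 per tested member and condition, 6 held a library far from the other 4, or 6.25%, where chance gives about 1 in 20. Control replicate 4 was high in 3 leukocyte integrins. It had 4.39 CPM of Itgam, where the other controls had 1.33 to 1.81, 1.05 CPM of Itgax, where they had 0.08 to 0.24, and 7.32 CPM of Itgb2, where they had 2.13 to 2.48. The same library had the highest microglia marker sum of the controls, 155 CPM. LPS replicate 1 had 0.968 CPM of Itgax, and the other LPS libraries 0.376 to 0.461. LPS replicate 5 had 56.4 CPM of Itgb8 and the others 89.0 to 100.2. Control replicate 2 had 342.2 CPM of Lamb2 and the others 322.8 to 326.2.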

How the results depend on the processing

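The 3 counts of members called stayed within 1.5 times of their main values under all 27 alternatives. Leaving out 1 library gave 6 to 10 members in LPS against control (7 with all), 17 to 21 in Rg1 plus LPS against LPS (20) and 15 to 18 in Rg1 plus LPS against control (16). Of all 15362 genes, 2840 to 4425, 6278 to 7306 and 4895 to 5934 passed in these refits (3635, 6976 and 5671 with all). The 10 members came without control replicate 4, where 2908 of all genes passed. No paired design is given by the labels, and the main fit treats all libraries as unpaired. Correlations of same-numbered LPS and Rg1 plus LPS libraries ran from 0.05 to 0.42. Of these, 4 of 5 exceeded 0.1, and 2 of 5 were the best match. Against control they ran from -0.22 to 0.16 for LPS and -0.22 to 0.14 for Rg1 plus LPS, with 1 of 5 over 0.1 in each. Whether same-numbered LPS and Rg1 plus LPS libraries share an origin is not stated. A replicate block gave 8, 21 and 18 members, where 4113, 7254 and 6027 of all 15362 genes passed. With the block, Itgb8 passed in Rg1 plus LPS against LPS (-0.43, adjusted p = 0.0229). Scaling by library size alone gave 7, 17 and 17 members, where 3861, 7525 and 6059 of all genes passed. This scaling moved the median log2 fold change of all genes in Rg1 plus LPS against LPS from 0.03 to 0.14. It moved the share of called genes that were higher from 48.9% to 65.0% (among members, from 5% to 5.88%). Of 43 called differences, 28 passed in every setting, including all those of Itga5, Itga8, Itgb1 and Lamc1, and 15 were lost in some, most often Itga6, Itga4 and Itga1 in Rg1 plus LPS against LPS. None changed sign. Lamb3 with LPS was lost without LPS replicates 2 and 3 (adjusted p = 0.0534). Of 53 differences that did not pass, 13 passed in some alternative, and 20 changed sign in 86 refits without passing in either fit, the largest being 0.49 in size on the log2 scale. Members under about 1 CPM are limited by depth.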
